A study of Mus musculus with 32 samples.

Results

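The acyl-CoA dehydrogenases are the flavoenzymes that introduce a double bond into an acyl-CoA at the start of each turn of fatty-acid β-oxidation, and this account follows 10 of their genes, Acadm, Acads, Acadl, Acadvl, Acadsb, Acad8, Acad9, Acad10, Acad11 and Acad12, in mouse liver. They were taken by name from the 20076 genes of the count table, with Acadm, the gene of medium-chain acyl-CoA dehydrogenase (MCAD), as the gene that was knocked out. All 10 were in the table and all 10 passed the filter on low counts that left 11566 genes for testing.

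RNA that the study describes as liver came from 32 male mice on a C57BL/6J background. They were Acadm-knockout (KO) or wild-type (WT), which the study's methods describe as littermates. Each mouse had 6 weeks of semisynthetic food, either low (LF) or high (HF) in fat. Food was then withdrawn for 16 h (fasted) or left in place (fed), which gives 8 groups of 4 mice. Ages are labelled from 7.5 to 16 with no unit. The values rest on 30 mice, since 2 libraries whose profiles stand apart were left out. In the library labelled KO HF fasted replicate 4, 10 heart markers summed to 36567 CPM (counts scaled to a common library size), against 0 to 232 in the 30 mice, and 10 hepatocyte markers to 799 CPM, against 43124 to 69255. In WT LF fed replicate 2 the hepatocyte markers summed to 33334 CPM and 8 markers of stellate cells and bile ducts to 1094 CPM, against at most 589 in the 30. Some of the 30 also carried markers of other tissues. Skeletal muscle markers summed to 1554 CPM in KO HF fed replicate 1, 834 CPM in WT HF fed replicate 4 and 326 CPM in WT HF fasted replicate 4. Acinar pancreas markers summed to 16813 CPM in WT HF fasted replicate 2 and 2480 CPM in KO HF fed replicate 1, and adrenal cortex markers to 293 and 126 CPM in KO LF fasted replicates 3 and 4. Their part in the results was not tested, beyond fits without the mice that carried pancreas markers. Group sizes are 4, except 3 for WT LF fed and 3 for KO HF fasted.

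Fatty acids enter mitochondria as carnitine esters and are shortened by repeated steps, of which dehydrogenation is the first. Very-long-chain (Acadvl), long-chain (Acadl), medium-chain (Acadm) and short-chain (Acads) enzymes overlap in the chain lengths they accept and pass their electrons to the electron-transferring flavoprotein (ETF). Acadsb and Acad8 act on branched-chain acyl-CoAs from the breakdown of isoleucine and valine, Acad9 also serves in the assembly of respiratory complex I, and Acad10, Acad11 and Acad12 are less studied relatives. Much of the switch of the fasting liver to fatty acids runs through the nuclear receptor PPARα, which binds as a pair with RXR to direct repeats of a short half-site.

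Acadm lies on chromosome 3, 153922357 to 153944632, minus strand (GRCm38), and the other members on chromosomes 1 (Acadl), 3 (Acad9), 5 (Acads, Acad10 and Acad12), 7 (Acadsb), 9 (Acad8 and Acad11) and 11 (Acadvl). Acad10 (5, 121621026 to 121660514) and Acad12 (5, 121596775 to 121618938) are neighbours on the minus strand and do not overlap. The last 500 bases of Acadvl (11, 70010183 to 70015411, minus strand), where 3′ tags fall, are also exon of Dvl2 on the other strand. The strand setting of the counting is not given in the sources used here, so Acadvl counts are uncertain to that extent. Dvl2 itself held at most 49 counts in any mouse.

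The 250 bases before the RefSeq start (GRCm38.p6) of Acadm, Acadl and Acadvl are shown because these are the mitochondrial straight-chain members that rose in the fast. Each runs 5′ to 3′ on the minus strand, and capitals mark the half-site AGGTCA or its reverse complement TGACCT.
Acadm (chr3:153944644-153944893): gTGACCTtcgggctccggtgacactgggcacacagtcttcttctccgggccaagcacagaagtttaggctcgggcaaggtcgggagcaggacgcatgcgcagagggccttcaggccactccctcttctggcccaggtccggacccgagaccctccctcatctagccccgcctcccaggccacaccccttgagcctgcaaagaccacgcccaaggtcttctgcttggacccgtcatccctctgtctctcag
Acadl (chr1:66863310-66863559): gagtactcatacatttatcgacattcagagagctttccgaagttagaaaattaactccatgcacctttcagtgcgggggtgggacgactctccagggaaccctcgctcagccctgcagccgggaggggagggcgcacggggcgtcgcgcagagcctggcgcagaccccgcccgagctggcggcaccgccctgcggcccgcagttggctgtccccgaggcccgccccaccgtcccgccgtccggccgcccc
Acadvl (chr11:70015429-70015678): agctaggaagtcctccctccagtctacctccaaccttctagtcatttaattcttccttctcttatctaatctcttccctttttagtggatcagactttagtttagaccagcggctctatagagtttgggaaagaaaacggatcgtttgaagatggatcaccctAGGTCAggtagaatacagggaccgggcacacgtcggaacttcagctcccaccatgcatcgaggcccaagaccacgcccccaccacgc

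The full direct repeat, 2 copies of AGGTCA in the same direction with 1 base between them, was searched on both strands with up to 2 mismatches. It was found in 0 of the 9 member windows that RefSeq holds (Acad9 has none there), and in 3.24% of all 32851 windows. The single half-site, searched on both strands after that, was found in 2 of the 9, with its first base 249 bases before the start in Acadm and 87 bases before it in Acadvl, and in 14% of all windows. The windows of Acadl, Acads, Acadsb, Acad8, Acad10, Acad11 and Acad12 hold neither.

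Acadm reads were nearly lost in KO livers and the other 9 genes were measured at about their WT levels. In WT mice fed the LF diet Acadm stood at 228, 189.8 and 191 CPM, and in their KO counterparts at 11.2, 21.5, 13.4 and 15.3 CPM. After the fast the WT LF values were 681, 607, 748 and 577 CPM, and the KO LF values 37.1, 18.0, 16.4 and 30.1 CPM. Every KO mouse lay below every WT mouse of its condition.

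On the HF diet Acadm stood at 331, 291, 309 and 346 CPM in fed WT and at 14.3, 10.4, 13.8 and 8.98 CPM in fed KO mice. Fasted HF mice had 655, 391, 641 and 614 CPM (WT) and 18.7, 27.2 and 25.4 CPM (KO). The WT mouse at 391 CPM, replicate 2, is the one with the highest pancreas markers, and its 9 fasting-responsive check genes summed to 4526 CPM, within the range of fed WT HF mice (3101 to 5160 CPM). The part of either in its Acadm value was not tested.

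Averaged over the 4 conditions, Acadm was lower in KO by 4.44 on the log2 scale (log2 fold change −4.44, SE 0.12, edgeR quasi-likelihood test, adjusted p = 6.6e-27), and KO levels were 7.58%, 3.89%, 3.72% and 4.14% of WT in fed LF, fasted LF, fed HF and fasted HF mice. Within sequencing lane 7 the difference was −4.62 and within lane 8 −4.36, from fits with separate terms for genotype, diet and feeding state in place of the 8 groups. The KO value was not 0 in any mouse: 26 to 94 reads were counted as Acadm in each KO library, against 566 to 2752 in WT. Which stretch of Acadm the knockout allele alters is not given in the sources used here, and a 3′ tag marks only the end of a transcript. These reads therefore cannot be told apart as whole or altered mRNA. Reads from WT libraries of the same lane were not tested as a source. The library with heart markers ran on lane 8, where every other library held at least 10.4 CPM of them. Lane 7 libraries held at most 6.48 CPM, except KO HF fed replicates 1 and 2 (232 and 11.7 CPM).

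**Figure D1:**
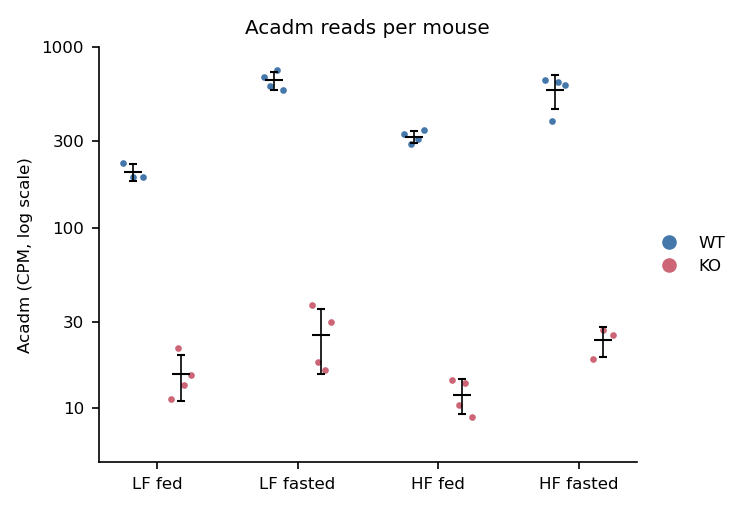
Acadm level of each mouse in CPM on a log axis, by diet and feeding state, WT in blue and KO in red, with group mean and SD in black (n = 4, or 3 for WT LF fed and KO HF fasted). KO mice sit between 8.98 and 37.1 CPM and WT mice between 189.8 and 748 CPM, and fasted mice sit higher on average within both genotypes.

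Acadm was the only gene of 11566 called between genotypes over the 4 conditions (0.00865%), and it was also the only one in each of the 4 conditions taken alone (0.00865% each). Under other settings these counts reached 2 genes, and 4 in fasted HF mice without KO HF fasted replicate 2, and Acadm remained the only member called. So 1 of 10 members was lower, 0 were higher, and the median log2 difference was −0.05 over the members and −0.003 over all genes tested. At an unadjusted p under 0.05, 335 genes passed (2.9%), among them 1 other member, Acadsb. DESeq2 and limma voom likewise called 1 member each.

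The mitochondrial straight-chain neighbours, which overlap with MCAD in chain length, were close to WT. Acadl, the long-chain enzyme, had a KO to WT fold of 1.01 (95% interval 0.904 to 1.13), and Acads, the short-chain enzyme, 0.966 (0.803 to 1.16). Acadvl, the membrane-bound very-long-chain enzyme, had 1.07 (0.953 to 1.195). A p that misses the threshold does not show equal levels, and the intervals give the changes still allowed.

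In single conditions the largest values of these 3 genes in the KO were in LF fasted mice for Acadl (log2 difference 0.25, SE 0.15, adjusted p = 0.84) and in LF fed mice for Acadvl (0.24, SE 0.17, adjusted p = 1). Acadvl in LF fed mice was 199.9, 234, 195 and 225 CPM in KO and 188, 184 and 171 CPM in WT, so the groups did not overlap there. Groups this small can lie apart by chance, and the share of all genes apart is not given here. The WT LF fed mice were all on lane 8 and the KO ones on both lanes. In the other 3 conditions the KO and WT ranges of Acadvl overlapped, and those of Acadl and Acads overlapped in all 4.

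Among the branched-chain enzymes, Acadsb had the largest positive KO difference of the family, 0.17 on the log2 scale (SE 0.08, fold 1.12, interval 1.01 to 1.25, unadjusted p = 0.035, adjusted p = 1). In LF fed mice it stood at 125, 137, 130.1 and 159 CPM in KO and 113, 109 and 117 CPM in WT, with no overlap, while the ranges overlapped in the 3 other conditions. Groups this small can lie apart by chance, and the share of all genes apart is not given here. These WT mice were all on lane 8 and the KO mice on both lanes. The log2 difference of Acadsb was positive in all 4 conditions, from 0.05 in LF fasted to 0.28 in LF fed mice, and none was called. Acad8 showed a fold of 1.01 (0.900 to 1.14).

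The remaining members gave wider intervals. Acad9 had a fold of 0.941 (0.7675 to 1.15), Acad10 0.909 (0.721 to 1.145) and Acad11 0.961 (0.758 to 1.22). Acad12, with 1 to 28 reads per mouse, had 0.913 (0.591 to 1.41), the widest interval of the family. The signs of Acads, Acadl, Acad8, Acad9, Acad10, Acad11 and Acad12 turned under at least 1 other setting, and none of them became a call.

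**Figure D2:**
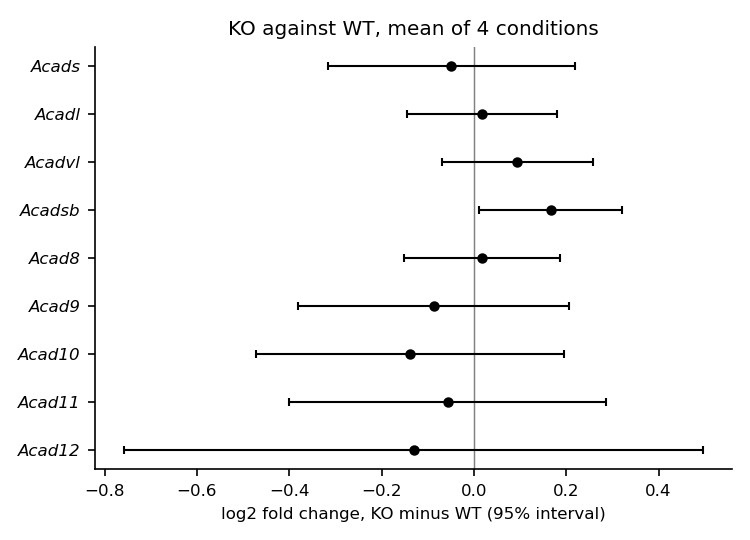
Mean log2 fold change of KO minus WT over the 4 conditions for the 9 members other than Acadm, with 95% intervals from the 30-mouse model. The points lie between −0.14 and 0.17, and the interval of Acadsb is the only one that does not cross 0, with an adjusted p of 1.

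The summed level of the other 9 genes overlapped between genotypes. A 3′ library gives about 1 tag per transcript whatever its length, so CPM are set side by side between genes without scaling to length. Fed LF mice summed to 1056 ± 51.2 CPM in KO (SD, n = 4) and 1031 ± 54.3 CPM in WT (n = 3), and fasted LF mice to 1599.6 ± 151 CPM (n = 4) and 1502 ± 64.6 CPM (n = 4). Fed HF mice summed to 1084 ± 90.2 CPM in KO and 1113 ± 36.0 CPM in WT, and fasted HF mice to 1333 ± 209.5 CPM (n = 3) and 1364 ± 162 CPM (n = 4). KO and WT ranges overlapped in all 4 conditions.

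Acadm made up 16.4%, 30.2%, 22.3% and 29.5% of all member reads in WT (fed LF, fasted LF, fed HF and fasted HF), and between 1.08% and 1.75% in KO. In whole tissue, a change in the number of hepatocytes and a change in the RNA of each cannot be told apart.

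The order of the levels differed with the fast. In WT LF fed mice Acads led with 289 ± 32.6 CPM, followed by Acadm (203 ± 21.7), Acad11 (198 ± 12.3) and Acadvl (181 ± 8.83), and the ranges of Acadm and Acad11, and of Acad11 and Acadvl, overlapped while the range of Acadvl lay apart from that of Acadl. Acadl (142 ± 8.74), Acadsb (113 ± 3.88), Acad8 (78.9 ± 2.81), Acad9 (16.9 ± 2.30), Acad10 (9.42 ± 0.611) and Acad12 (1.95 ± 0.292) followed, each with its range apart from the next. In WT LF fasted mice Acadm led at 653 ± 76.8 CPM and Acad11 was next at 446 ± 55.4 CPM, with their ranges apart.

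In WT HF mice Acadm led in both states, at 319 ± 24.0 CPM fed and 575 ± 124 CPM fasted, although its range overlapped with that of the next gene. In KO mice Acadm held rank 7 to 9 of 10, below Acad8 and near Acad9 and Acad10. Acads led in both fed KO groups (256 ± 6.35 and 260 ± 70.5 CPM) and Acad11 in both fasted ones (423 ± 255 and 408 ± 127 CPM).

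**Figure D3:**
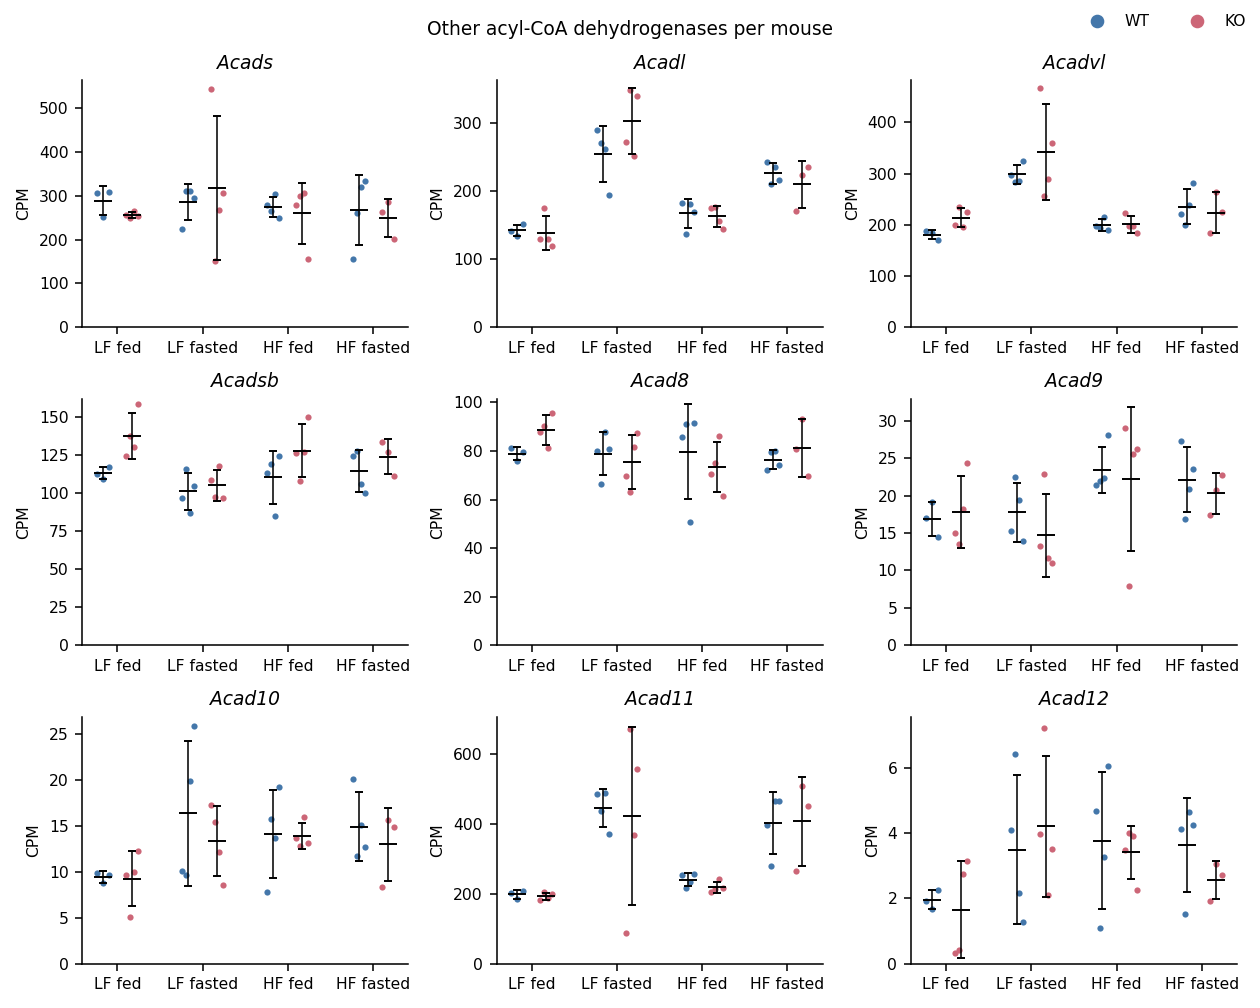
CPM of the 9 other members in each mouse, by diet and feeding state, WT in blue and KO in red, with group mean and SD in black and axes from 0. Acadl, Acadvl and Acad11 are higher in fasted mice, and 1 KO LF fasted mouse is highest for Acads (544.5 CPM) and Acadvl (468 CPM) and lowest for Acad11 (88.7 CPM).

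Fasting raised 4 of the 10 members and lowered none. Over the 4 pairs of groups Acadm rose by 1.07 on the log2 scale (SE 0.11), Acad11 by 0.98 (SE 0.17), Acadl by 0.69 (SE 0.08) and Acadvl by 0.45 (SE 0.08), with adjusted p of 1.9e-09, 8.7e-05, 2.3e-08 and 5.0e-05 by edgeR. For comparison, 9.77% of all genes tested rose and 18.9% were called in either direction. The median over the members was 0.38 and over all genes −0.002. Within lane 7 alone, Acadm was the only member called.

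The same 4 members were called higher in WT alone (4.72% of all genes higher, 9.09% called) and in KO alone (6.05% higher, 11.2% called). The test of the difference between the genotypes called 0 genes of 11566 (0%), with 573 at an unadjusted p under 0.05 (4.95%) and none of them a member, and DESeq2 and limma voom called 0 members.

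Acadl rose in both genotypes. Its WT values on the LF diet were 142, 134 and 151 CPM fed and 291, 272, 263 and 195 CPM fasted, and its KO values 130.1, 175, 130.5 and 119 CPM fed and 273, 349, 252 and 339.8 CPM fasted. On this diet no fasted mouse overlapped with a fed one in either genotype, although the share of all genes apart in this way is not given here. The log2 change over both diets was 0.64 in WT (SE 0.12, adjusted p = 1.6e-04) and 0.75 in KO (SE 0.11, adjusted p = 1.0e-05), and their difference was 0.11 (interval −0.21 to 0.44).

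Acadvl also rose in both genotypes. On the LF diet it was 188, 184 and 171 CPM in fed WT and 298, 284, 286 and 325 CPM in fasted WT. Fasted KO mice had 468, 255, 289.6 and 359 CPM. Fed and fasted ranges were apart in both genotypes, and here too the share of all genes apart is not given. The log2 change was 0.48 in WT and 0.42 in KO (SE 0.11 in each, adjusted p = 0.0040 and 0.010), with a difference of −0.06 (interval −0.39 to 0.27). Without KO HF fasted replicate 2 the KO change was 0.35 and was no longer called (adjusted p = 0.063). With all 32 mice, which include the library with heart markers, the WT change was not called (adjusted p = 0.067).

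Acad11 rose in both genotypes, with log2 changes of 0.95 in WT (SE 0.24, adjusted p = 0.010) and 1.01 in KO (SE 0.24, adjusted p = 0.0045). Fed WT LF mice had 203, 184 and 207 CPM and fasted ones 486, 437, 489 and 371 CPM. Fed KO LF mice had 182, 204, 187 and 199 CPM and fasted ones 88.7, 673, 369.8 and 559 CPM. The fasted KO mouse at 88.7 CPM, replicate 1, lay below every fed mouse, while its fasting check genes had the highest sum of the 30 mice (51010 CPM) and its profile correlated least with the others.

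The other 6 members were not called. Acads stood at a log2 difference of 0.05 (SE 0.13), Acad8 at −0.04 (SE 0.08), Acad9 at −0.10 (SE 0.15) and Acadsb at −0.14 (SE 0.08), and the poorly counted Acad10 and Acad12 at 0.33 (SE 0.16) and 0.42 (SE 0.31).

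**Figure D4:**
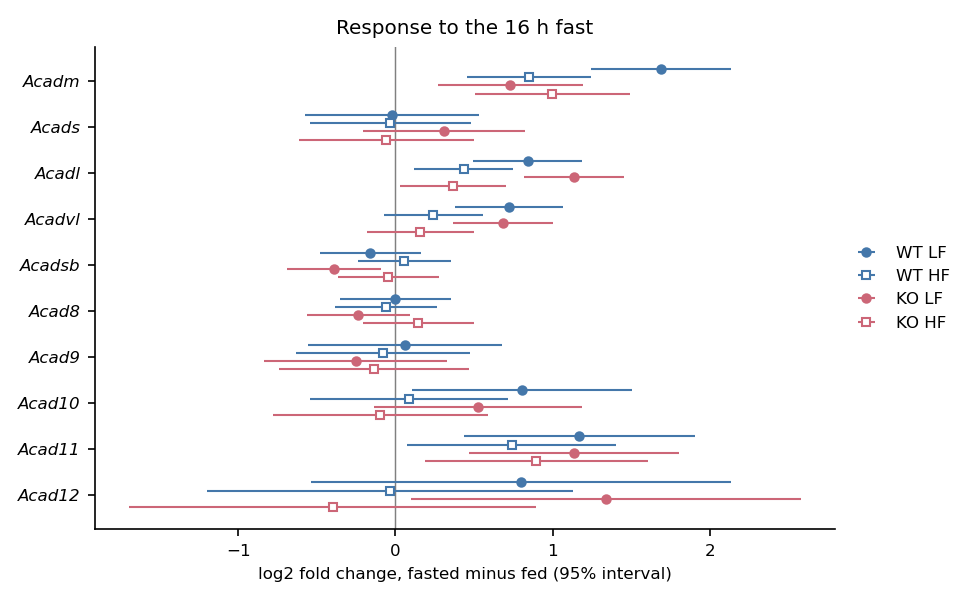
Log2 fold change of fasted minus fed with 95% intervals for each member, in WT (blue) and KO (red) on the LF (filled circles) and HF (open squares) diets. Acadm lies above 0 in all 4 cases, Acadl and Acad11 likewise, and Acadvl on the LF diet only, while the other members cross 0 in most cases.

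The residual Acadm reads of KO mice rose with the fast. Over both diets the log2 change in KO was 0.86 (SE 0.17, fold 1.82, interval 1.44 to 2.30, adjusted p = 3.4e-04), next to 1.27 in WT (SE 0.15, fold 2.41, interval 1.96 to 2.96). By diet it was 0.73 in KO LF (adjusted p = 0.0255) and 0.997 in KO HF (adjusted p = 0.045), and 1.69 in WT LF (adjusted p = 1.7e-06) and 0.85 in WT HF (adjusted p = 0.030). On the LF diet 4 members were called higher in each genotype, where 3.75% (WT) and 7.26% (KO) of all genes were higher and 7.54% and 13.8% were called. On the HF diet Acadm was the only member called in either genotype, where 0.268% (WT) and 0.294% (KO) of all genes were higher and 0.424% and 0.527% were called.

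As a check on single values, an exact two-sided permutation test over mice compared log2 Acadm of 7 fasted and 8 fed KO mice and gave a difference of 0.85 with p = 0.0025. On the HF diet all 3 fasted KO mice lay above the 4 fed ones (18.7 to 27.2 against 8.98 to 14.3 CPM, exact p = 0.029, the smallest that 3 against 4 can give). On the LF diet 2 of 4 fasted KO mice lay above all fed ones and the ranges overlapped (exact permutation p = 0.11).

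The KO means were higher in fasted mice within both lanes. In lane 7 they were 14.4 ± 5.06 CPM fed (n = 4) and 23.5 ± 8.69 CPM fasted (n = 5), and in lane 8 12.9 ± 2.73 CPM fed (n = 4) and 27.8 ± 3.30 CPM fasted (n = 2). With lane as a term the KO change was 0.88 and the call was kept. Leaving out any 1 of the 30 mice gave KO changes from 0.75 to 0.96, all called.

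Whether the KO rise is smaller than the WT rise was not resolved by the test across genes. The genotype difference in the fasting change of Acadm was −0.40 (SE 0.22, interval −0.85 to 0.05, unadjusted p = 0.077, adjusted p = 0.98). Split by diet after seeing the data, it was −0.96 on LF (SE 0.31, unadjusted p = 0.0040, adjusted p = 0.92) and 0.15 on HF (SE 0.31), and the split values differed by −1.10 (SE 0.44, unadjusted p = 0.017, adjusted p = 1). All WT LF fed mice were sequenced on lane 8, so within lane 7 the WT LF change has no fed mice to rest on. The mean Acadm of WT LF fed mice was 203 CPM in the 3 used and 231 CPM with replicate 2, which was left out. The split values with that mouse are not given here.

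Other genes of the pathway were tested in the same model, in which 9.77% of all genes rose in the fast and 18.9% were called in either direction. All 3 carnitine entry genes tested rose in the fast: Cpt1a, the outer-membrane carnitine palmitoyltransferase, by 1.40 (SE 0.12), Slc25a20, the carrier, by 1.15 (SE 0.08) and Cpt2 by 1.06 (SE 0.10). Of the later steps of the spiral 8 of 9 rose, among them Eci2 (1.17), Hsd17b10 (1.24), Eci1 (0.92) and Decr1 (0.85), and Echs1, the enoyl-CoA hydratase of short chains, stood at −0.12.

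Of 5 genes of the electron acceptor chain, 3 rose: Etfdh by 0.91, Etfrf1 by 0.65 and Etfb by 0.35, with Etfa at 0.12. Of 4 tested genes of the riboflavin and FAD supply, 2 rose, Slc25a32, the mitochondrial FAD carrier, by 1.08 and Slc52a2, a riboflavin transporter, by 0.9997. In WT 2 of the 4 were called (median log2 change 0.77), where 9.09% of all genes were called, and in KO 0 (median 0.68), where 11.2% were. On the LF diet alone 1 of the 4 was called in each genotype. Slc25a32 stood at 1.44 in WT and 0.72 in KO, and the test of the difference between genotypes called 0 of the 4 and 0% of all genes. Among the 8 genes tested next to Acadsb and Acad8 in branched-chain breakdown 0 rose and 1 fell, Mccc1 (by 0.26), and 0 of 5 partners of Acad9 in complex I assembly were called. With 18.9% of all genes called in the fast, these counts do not set either list apart. Between KO and WT, 0 genes of these lists were called, against 0.00865% of all genes.

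The 2 acyl-CoA dehydrogenases outside the named set were not called in the fast: Ivd, of leucine breakdown, at −0.02 and Gcdh, of lysine breakdown, at −0.03. Of the peroxisomal acyl-CoA oxidases, which catalyse the corresponding first step there, Acox2 rose by 0.57 (SE 0.07) and Acox3 stood at −0.20 (SE 0.11). The KO to WT difference of Acox2 was 0.06 and was not called.

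Across the 15 WT mice the genes whose log2 CPM followed Acadm most closely were Cyp4a10 (r = 0.987), Eci2 (0.980), Hsd17b4 (0.976), Acad11 (0.974) and Acaa1a (0.973). Across the 15 KO mice the r of the same genes with the residual Acadm was 0.81, 0.75, 0.32, 0.21 and 0.80. All these points share the contrast of fed and fasted mice and come from 1 library each, so r describes these mice and no more. The genes named here were picked for the highest r in WT, so their WT and KO values cannot be compared on equal terms. The residual Acadm of KO mice also rested on only 26 to 94 reads per library. For Acad11, r with Acadl was likewise 0.93 in WT and 0.57 in KO, and with Acadvl 0.86 and 0.009. In KO LF fasted replicate 1 Acad11 was the lowest (88.7 CPM) of the 15 KO mice, and Acadvl (468 CPM) and Acadm (37.1 CPM) were the highest. The part of this mouse in the lower KO values was not tested, nor was any other cause. Over all 30 mice Acadl was nearest to Acot12 (0.942), Cyp4a10 (0.931) and Acot1 (0.930), and Acad11 to Etfdh (0.952), Hsd17b4 (0.930) and Acat1 (0.9145). Acadvl was nearest to Grn (0.919), Phb2 (0.908) and Oplah (0.907), and Acads to Atp6v1f (0.892), Atxn7l3 (0.880) and Cdc42bpb (0.879).

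The remaining members had no gene above an r of 0.76. Nearest were Pold2 (0.704), Selenbp2 (0.701) and Gm16731 (0.689) for Acadsb, Yipf2 (0.710), Usp19 (0.6395) and Samd10 (0.626) for Acad8, and Tcta (0.729), 2810408I11Rik (0.724) and Alg14 (0.683) for Acad9. For Acad10 they were Gzf1, Ptp4a3 and Dus1l (0.681, 0.678 and 0.642), and for Acad12 Stap1, Hykk and Eif3s6-ps1 (0.755, 0.751 and 0.716).

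Between diets the family differed in few tests. Averaged over genotype and feeding state, 0 of 10 members were called between HF and LF by edgeR, DESeq2 or limma voom. Of all genes, 3.49% were called by edgeR. At an unadjusted p under 0.05 Acadvl (−0.23, SE 0.08) and Acad9 (0.39, SE 0.15) passed. With no share of all genes given at that threshold, these values do not set the members apart. Gcdh, the only related dehydrogenase called, was 0.26 higher on HF (SE 0.07, adjusted p = 0.042).

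In fasted mice alone Acadvl was lower on HF, by 0.48 on the log2 scale (SE 0.11, adjusted p = 0.0071), where 2.9% of all genes were lower and 6.65% were called. Fasted WT mice stood at 221, 200.5, 239.5 and 281 CPM on HF against 284 to 325 CPM on LF, and fasted KO mice at 183, 265 and 224 CPM on HF against 255 to 468 CPM on LF. Acadl differed the same way by −0.35 (SE 0.11, adjusted p = 0.057). With all 32 mice the difference of Acadvl was −0.34 and was not called (adjusted p = 0.24). That fit includes the library with heart markers, with which the KO HF fasted mean of Acadvl was 275 CPM in place of 224 CPM. In fed mice 0 members were called by edgeR, against 0.268% of all genes. Acadl (0.24) and the poorly counted Acad10 (0.58) and Acad12 (0.96) had an unadjusted p under 0.05. The share of all genes at that threshold is not given here, so these values do not set the members apart. All WT LF fed mice were on lane 8 and most WT HF fed mice on lane 7, so diet and lane are partly mixed there.

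The fasting change itself was smaller on HF for Acadl. On HF, fed WT mice had 184, 137, 181 and 169 CPM and fasted ones 243, 210.3, 236 and 216 CPM, and fed KO mice had 175, 176.5, 157 and 145 CPM and fasted ones 171, 224 and 236 CPM. Fed and fasted ranges were apart in WT, with no share of all genes given, and overlapped in KO. The log2 change was 0.84 in WT LF and 1.13 in KO LF but 0.43 in WT HF and 0.37 in KO HF, and the difference was −0.59 (SE 0.16, adjusted p = 0.039), with 1.2% of all genes lower in this test and 2.46% called. The adjusted p lay between 0.0075 and 0.76 over the other settings and the call was lost in 7 of 11 of them and in 19 of 30 fits that left out 1 mouse. Acadvl had −0.50 (SE 0.16, adjusted p = 0.095) and Acadm −0.29 (SE 0.22, adjusted p = 0.65).

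Of the genes around them, the 3 carnitine entry genes were called lower (Slc25a20 −0.76, Cpt2 −0.77 and Cpt1a −0.82), against 1.2% of all genes. So were 1 of 3 oxidases (Acox2, −0.57), 1 of 9 later steps (Eci2, −0.66) and 5 of 9 fasting check genes. In the electron acceptor chain 0 of 5 were called, and in the FAD supply 0 of 4. The check genes were listed as fasting-responsive and 8 of 9 rose in the fast, against 9.77% of all genes. Their count in this test is therefore not on equal terms with all genes. The summed level of those 9 check genes ran from 19120 to 51010 CPM in LF fasted mice, and 2 HF fasted mice, WT replicate 2 and KO replicate 1, lay within the range of HF fed WT mice. Their part in the difference between diets was not tested.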

How the data were processed

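RNA of 32 mice, described as liver by the study, was read by 3′ sequencing of transcript ends. By its markers 1 of these libraries, left out of the values, resembled heart. The authors deposited a table of raw counts, whole numbers per gene and mouse, not normalized. They mapped reads to GRCm38 with HISAT 0.1.5, sorted them with SAMtools 1.2 and counted with HTSeq 0.6.1p1 in union mode. The strand setting of the counting is not given in the sources used here. Identifiers were matched to GENCODE vM21 (GRCm38) for symbols and positions. Of 20076 identifiers 19913 matched, and the 163 others carried 0.125% of counts and were left without a symbol. Total counts ran from 2031053 to 4292200 per mouse.

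One model of the 8 groups over 30 mice was fitted with edgeR 4.0.16 in R 4.3.3 (TMM normalization, filterByExpr, robust quasi-likelihood F test, Benjamini-Hochberg adjustment over 11566 genes, called at an adjusted p of 0.05). Intervals are at 95%, and CPM use the TMM library sizes. Values of the mice left out come from a normalization of all 32. Alternatives included DESeq2 1.42.0, limma 3.58.1, lane and age terms, both lanes alone and leaving out each mouse. Fits of 1 lane had separate terms for genotype, diet and feeding state in place of the 8 groups. The tests were tried on simulated counts. Named genes were all members, the other acyl-CoA dehydrogenases, the oxidases, at most 4 called genes of each other pathway list per comparison, the 5 genes most correlated with Acadm over WT mice and the 3 most correlated with each other member over 30. One gene that this rule names is not reported here. Members and lists were chosen with earlier results of these data known. A few further genes of the lists (Etfa, Echs1) were named after their values were seen. Pairs of mice within a group always differed by more than counting noise. Residuals of same-numbered KO and WT mice had r from −0.13 to 0.13 (median −0.007 over 14 pairs), and the numbers were not used to pair mice. A pairing by litter was not tested. Each mouse is a separate animal.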

Additional observations from a re-analysis of the deposited data

Results flagged for a closer look

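Among 60 groups of 4 mice examined, 5 values lay apart from the other 3, where chance gives about 1 in 20. Acadm in WT HF fasted replicate 2 was 391 CPM (next 614), and Acad12 in the same mouse 1.505 CPM (next 4.13). Acad8 in WT HF fed replicate 3 was 50.9 CPM (next 85.5). Acad9 in WT HF fed replicate 4 was 28.1 CPM, above 22.3, and in KO HF fed replicate 2 it was 7.99 CPM, below 25.5.

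The fasting response of Acadl differed between diets, by −0.59 on the log2 scale in the test of the difference itself (edgeR, adjusted p = 0.039). The call was lost in 19 of 30 fits that left out 1 mouse and in 7 of 11 other settings, where the adjusted p reached 0.76.

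Outside the 30 mice, the library labelled KO HF fasted replicate 4 held 36567 CPM of heart markers, against at most 232 in the others, and WT LF fed replicate 2 held 1094 CPM of stellate cell and bile duct markers, against 407 to 589.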

How the results depend on the processing

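Of 1896 values compared over 46 results, 14 alternatives and 30 fits that left out 1 mouse, 1792 kept direction and side of the threshold (or, for counts of members, stayed within 1.5 times the reported count) and 104 did not. Acadm kept its KO to WT call and its fasting calls in WT, KO and both under every alternative run. Fits with all 32 mice include the library with heart markers. The number of members called in the fast was 1 in place of 4 within lane 7, where 344 genes were called in place of 2187. There Acadl (0.53, adjusted p = 0.05003), Acadvl (0.26, 0.44) and Acad11 (0.83, 0.16) were not called, and within lane 8 Acadsb was (−0.32, 0.041). Members called between diets ranged from 0 to 2 when 1 mouse was left out (2 without KO LF fasted replicate 2, 1 without KO HF fed replicate 2). In fasted mice they numbered 0 with all 32 mice, 2 with DESeq2 and 1 to 2 with 1 mouse left out (2 without KO LF fasted replicate 1, KO LF fasted replicate 3, KO LF fed replicate 2 or WT LF fasted replicate 4). In the diet by fasting test they numbered 0 with all 32, 31, 28 or 27 mice, without the low-count filter, with the replicate block and with lane as a term, 2 with DESeq2, and 0 to 1 with 1 mouse left out. The 28 and 27 mice leave out 2 mice with pancreas markers and then also KO LF fasted replicate 1, and were chosen after seeing the data. The replicate block, which groups mice of the same number, changed no other count of members. It gave 0.863 for Acadm in the fast in KO and an adjusted p of 0.055 for Acadl in the diet by fasting test. Genes called between KO and WT numbered 1, and 2 without WT HF fed replicate 2. In single conditions they numbered 1, and 2 in LF fed with only the mice of that condition, in LF fasted with DESeq2, without the low-count filter or without WT LF fasted replicate 1, KO LF fed replicate 3 or KO HF fed replicate 4, in HF fed with age as a term, and 4 in HF fasted without KO HF fasted replicate 2. Genes called in the diet by fasting test were 285, from 22 with all 32 mice to 426 with DESeq2. Genes called between diets were 404, from 53 within lane 7 to 566 with DESeq2, and in fasted mice 769, down to 293 with all 32. Genes called between fasted and fed WT mice were 1051, down to 518 with all 32.

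Signs turned, with no call before or after, for KO to WT of Acads (0.15 in lane 7), Acadl (−0.074 in lane 7, -6.317e-05 with 28 mice), Acad8 (−0.014 in lane 8), Acad9 (0.0082 in lane 8), Acad10 (0.045 in lane 7), Acad11 (0.049 in lane 8, 5.5e-04 with 27 mice) and Acad12 (0.12 with all 32, 0.035 in lane 8). In the fast they turned for Acads (−0.053 in lane 7, −0.037 with 27 mice), Acadsb (0.031 in lane 7), Acad9 (0.081 in lane 7) and Acad12 (−0.052 in lane 8). Leaving out 1 mouse gave KO to WT ranges of −0.15 to 0.0093 for Acads, −0.016 to 0.049 for Acadl, −0.024 to 0.042 for Acad8 and −0.14 to 0.027 for Acad11, and −0.048 to 0.11 for Acads in the fast. The cause of these changes was not tested, beyond the smaller number of mice within a lane. Low counts limit Acad9, Acad10 and Acad12.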

Other observations

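The 2 libraries left out had these values for the family. In the library labelled KO HF fasted replicate 4, which carried heart markers, Acadl stood at 678 CPM, Acadvl at 422, Acads at 249, Acad11 at 126, Acadsb at 111 and Acad12 at 16.6, while the 15 KO livers reached at most 349 CPM of Acadl and 7.21 CPM of Acad12. Acadm there was 23.4 CPM (73 reads), within the range of the KO livers. In WT LF fed replicate 2 Acadm was 309.7 CPM, above the 189.8 to 228 CPM of the other 3 WT LF fed mice, and Acad11 (133 CPM), Acadsb (58.7 CPM) and Acads (186 CPM) were below them. With that mouse included, KO Acadm in LF fed mice was 6.71% of WT.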
